A study of Mus musculus with 8 samples.

Results

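The 9 genes described here govern or build cartilage: the transcription factors Sox9, Sox5, Sox6 and Runx3, the signal Ihh, and the matrix genes Acan, Hapln1, Comp and Matn3. They were chosen by name, 9 of 21887 protein-coding genes in the RefSeq annotation of GRCm38.p6. The measure was coverage, the percent of a gene's span that lies under peaks of H3K36me3, together with the number, width and place of those peaks. H3K36me3 is trimethylation of histone H3 at the lysine that Setd2 writes, and ChIP-seq, the sequencing of DNA pulled down with an antibody to it, shows where it lies.

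All cells were bone marrow stromal cells (BMSCs) of C57BL/6J mice carrying Setd2 fl/fl, at passage 2. The WT group received a lentivirus for GFP and the KO group a lentivirus for Cre recombinase, which deletes the floxed part of Setd2. Both groups then had 4 days of puromycin (2 µg/ml) before 10 min of fixation in 1% formaldehyde. Each group had 2 H3K36me3 libraries, and the authors called their peaks against 1 Input library of the same group and, separately, against 1 IgG library. Values below are from the lists against Input unless IgG is named. The labels name no chondrogenic treatment, and they do not say whether the libraries of a group came from separate cultures or animals, so that p-values measure only the spread between these libraries, which may be technical. A pool of cells gave each library, so fewer cells carrying the mark and less of the mark per cell cannot be told apart.

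Setd2 travels with elongating RNA polymerase II and leaves H3K36me3 along the body of transcribed genes, usually more towards the 3′ end than at the start. Sox9 is the factor that commits mesenchymal cells to cartilage, and it switches on matrix genes together with Sox5 and Sox6, which bind DNA beside it. Marrow stromal cells can be driven to make cartilage in culture, but undifferentiated cells are not known for high expression of the cartilage matrix.

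Coverage of the targeted gene is given first, although it is no check of the deletion. Among genes with a mean of at least 25%, 98.6% were lower in KO. Setd2 itself had 66.4% and 60.5% of its span under peaks in WT replicates 1 and 2, and 0.690% and 1.70% in KO replicates 1 and 2 (limma adjusted p = 0.000567). The 4 lists held between 122589 and 246258 peaks. Of the DNA outside annotated genes, peaks covered 1.98% and 1.97% in WT versus 2.52% and 3.32% in KO. The lists carry no read counts, so the depth is unknown. Over all 18288 protein-coding genes with a peak, 58.5% were lower in KO (56.2% against IgG, and 24.4% after scaling). Scaling divides each library by its mean coverage over the genes tested and multiplies the result by the average of those means. Differences after scaling are therefore given in scaled points, which are not percentage points of a gene's span. Of 15 stromal markers, 14 had a peak and 12 were lower in KO (6 of 12 against IgG, and 2 of 14 after scaling). Their mean coverage was 43.3% and 39.99% in WT versus 2.89% and 2.86% in KO, while Thy1 had no peak in any list and Lepr had 3.33% and 0.812% in WT. Of 10 haematopoietic markers, 9 had a peak and 7 were lower (6 of 8 against IgG, and 1 of 9 after scaling). Of 5 endothelial markers 0 were lower and 0 higher, and after scaling 5 were higher, where 11.5% of all genes were. Median coverage of these endothelial markers was low in both groups, 2.11% in WT and 5.43% in KO.

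Of the 9 genes, 2 lost coverage in KO past the test. Runx3 fell from 32.4% to 1.80% and Sox9 from 9.79% to 0%, while Sox5, Sox6, Acan, Hapln1, Comp and Matn3 did not pass, and Ihh had no peak in any list and was not tested. Thus 2 of 8 tested genes were lower, where 58.5% of the 18288 genes tested over the genome were lower, and 0 were higher, where 2.69% were. The median change of the 8 genes was 0.149 percentage points, beside -23.6 points over all genes tested. Of the 9 genes, 5 stayed under 5% in all 4 lists, and Runx3 is the 1 gene with a mean of at least 10%. Against IgG 2 of 8 were lower and 0 higher, beside 56.2% and 1.62% of 17393 genes. Among genes with a mean of at least 10%, where only Runx3 remains, 92.6% were lower and 0.555% higher, and Runx3 was lower. After scaling, 0 of the 8 were lower (24.4% of all genes) and 3 were higher, Sox5, Sox6 and Matn3 (11.5% of all genes). That scaling also changed the genome-wide split, from 95.6% of calls lower to 68%.

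**Figure D1:**
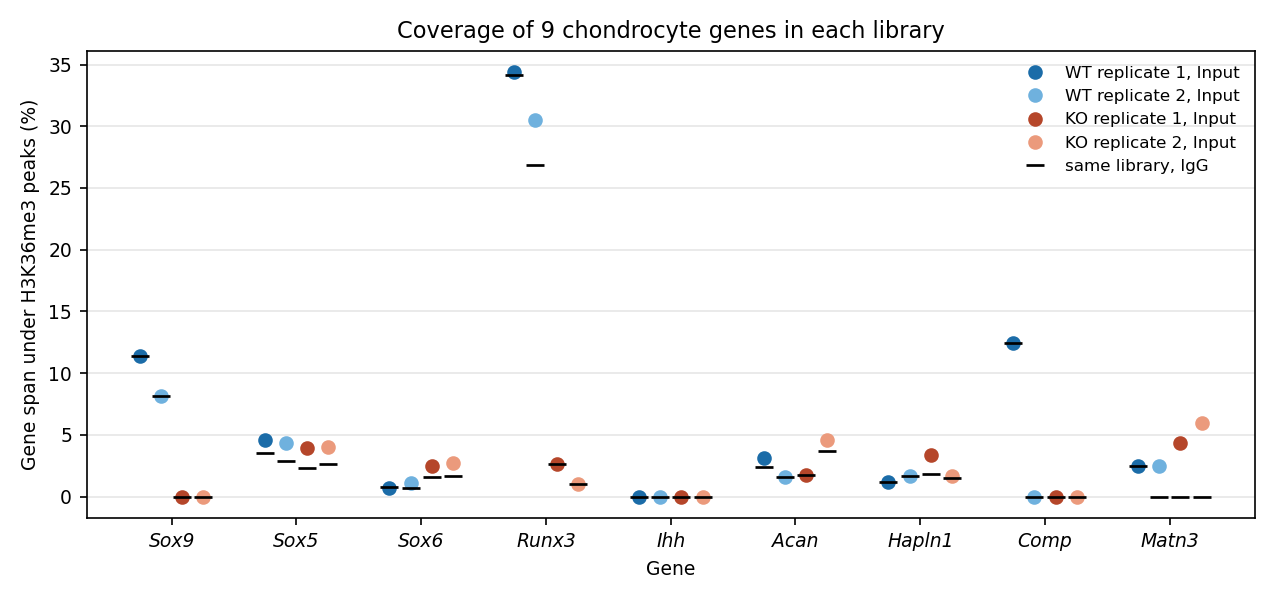
Percent of each gene's span under H3K36me3 peaks (vertical axis) for the 9 genes (horizontal axis). Each point is 1 library against Input and each dash is the same library against IgG. Runx3 stands at 34.4% and 30.5% in WT, every other gene is under 13% in every library, and the KO points of Sox5, Sox6, Acan, Hapln1 and Matn3 lie among or above the WT points or just under them.

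**Figure D2:**
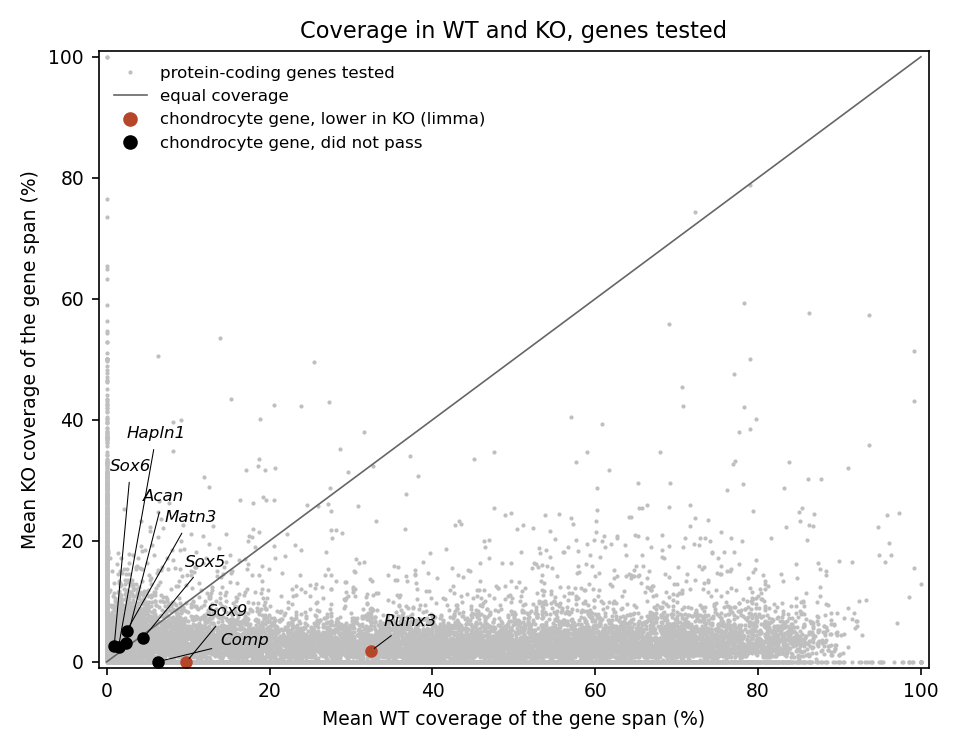
Mean coverage of the span in KO (vertical axis, percent) against WT (horizontal axis, percent) for the 18288 protein-coding genes with a peak (grey) and the 8 chondrocyte genes with a peak (coloured). The line marks equal coverage. Runx3 lies along the bottom with the many genes that lost the mark, and the other named genes crowd the lower left corner.

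In order of mean WT coverage the genes were Runx3 (32.4%), Sox9 (9.79%), Comp (6.23%), Sox5 (4.50%), Matn3 (2.46%), Acan (2.36%), Hapln1 (1.45%), Sox6 (0.904%) and Ihh (0%). The libraries of neighbours overlap for Sox9 and Comp, for Comp and Sox5, for Matn3 and Acan, and for Acan and Hapln1. Both WT libraries of Runx3 stand above those of every other gene. In KO the order changed to Matn3 (5.14%), Sox5 (3.98%), Acan (3.17%), Sox6 (2.61%), Hapln1 (2.51%) and Runx3 (1.80%), with Sox9, Comp and Ihh at 0%. The plot of coverage by library shows the KO values close together, between 0% and 5.93%.

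Runx3, a Runt-domain factor that works with Runx2 in chondrocyte maturation and is also known for its part in T and NK cells, spans 57.3 kb (chr4:135120645-135177990, plus strand). It has a distal and a proximal transcription start, and their promoter windows from RefSeq (GRCm38.p6) are printed because neither carried a peak although the body did. Capitals mark a RUNX core, TGTGGT, read as its complement ACCACA. The windows lie at chr4:135120395-135120694 and chr4:135152295-135152594, both plus strand:
Runx3 distal promoter: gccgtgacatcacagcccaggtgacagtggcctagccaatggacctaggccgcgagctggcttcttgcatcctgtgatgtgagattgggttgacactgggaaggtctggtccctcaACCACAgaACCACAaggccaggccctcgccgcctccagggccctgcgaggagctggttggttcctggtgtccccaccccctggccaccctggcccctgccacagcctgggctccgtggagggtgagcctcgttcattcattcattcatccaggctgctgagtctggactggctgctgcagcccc
Runx3 proximal promoter: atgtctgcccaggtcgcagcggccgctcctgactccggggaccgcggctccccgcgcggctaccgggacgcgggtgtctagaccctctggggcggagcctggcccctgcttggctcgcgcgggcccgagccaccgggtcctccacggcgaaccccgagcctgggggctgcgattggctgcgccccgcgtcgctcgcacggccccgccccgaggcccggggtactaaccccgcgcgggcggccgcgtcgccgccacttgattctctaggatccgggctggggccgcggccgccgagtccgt
The distal window holds 2 RUNX cores and 8 CpG dinucleotides, and the proximal window none of the former and 45 CpG, with 3 GC boxes (GGGCGG). Searched on both strands, TGTGGT occurs in 16.8% of 32851 promoter windows of the same 300 bases and GGGCGG in 35.7%, and the median window has 7 CpG. These matches describe letters and say nothing on binding.

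Peaks covered 34.4% and 30.5% of Runx3 in WT replicates 1 and 2, against 2.61% and 0.982% in KO replicates 1 and 2. Both KO libraries lay far under both WT libraries. The difference was -30.6 percentage points (SE 2.42, limma adjusted p = 0.00158), from 32.4% ± 2.76 to 1.80% ± 1.15 (SD, n = 2 each). Against IgG the values were nearly the same, 34.2%, 26.8%, 2.61% and 0.982% in the same order. An exact two-sided permutation test of 2 libraries against 2 cannot go below 0.333, the value it gave here. Scaling each library to its mean coverage ended the call (-9.81 scaled points, adjusted p = 0.17). With each library left out in turn the fall stayed past the threshold, at adjusted p between 0.0291 and 0.0448.

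The number and the width of the Runx3 peaks both fell. There were 16 and 18 peaks in WT versus 2 and 1 in KO. The widest measured 3412 and 2388 bp in WT versus 793 and 563 bp in KO. In each WT library 3 peaks were wider than 2 kb, and all of these lay past the proximal start. The authors' score of the top peak was 256.94 and 119.05 in WT versus 49.38 and 25.95 in KO, where a score can be ranked only within its own list. These top peaks stood at percentiles 96.0, 88.1, 64.4 and 23.7 of their lists.

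Within Runx3 the mark lay towards the 3′ end. Between the distal and the proximal start (31.9 kb) peaks covered 17.1% and 11.2% in WT versus 2.49% and 0% in KO. From the proximal start to the end of the gene (25.4 kb) they covered 56.1% and 54.7% in WT versus 2.77% and 2.21% in KO. This division was chosen after the values were seen. Within 1 kb of either start no list had a peak, against Input or IgG. The first peak past the proximal start began 4.72 and 3.07 kb from it in WT, and 14.5 and 18.8 kb from it in KO. In 10 equal segments from the 5′ end, the last 3 were covered to 64.5%, 75.2% and 92.7% in WT replicate 1 and to 49.4%, 82.1% and 64.4% in WT replicate 2. The segment that holds the proximal start had no peak in any library.

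**Figure D3:**
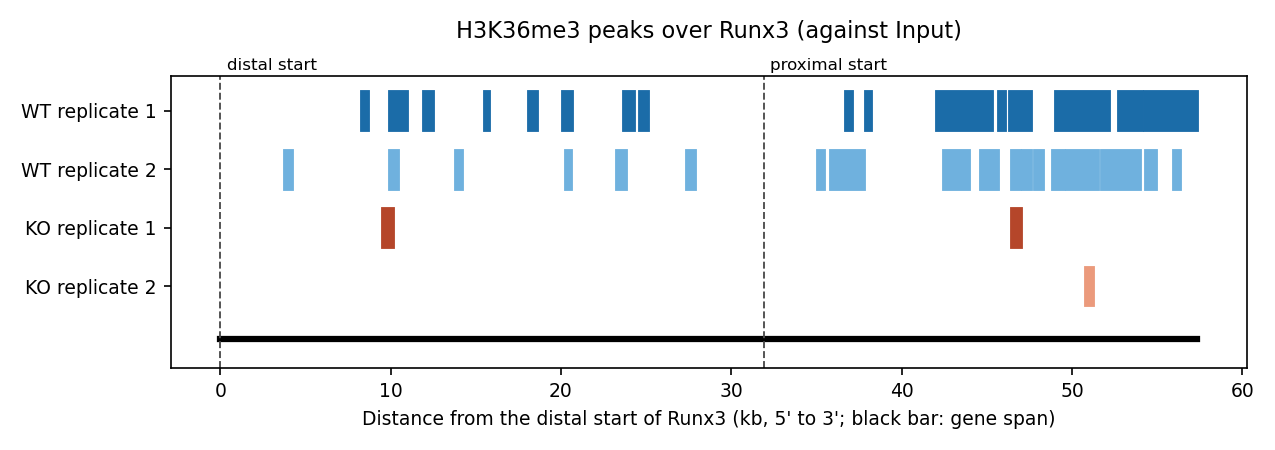
H3K36me3 peaks over Runx3 in each library (rows) by distance from the distal start in kb (horizontal axis, 5′ to 3′), with both starts as dashed lines and the gene span as a black bar. Wide WT peaks fill most of the 3′ end, and the KO libraries show 2 and 1 narrow peaks.

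The WT replicates placed their Runx3 peaks alike: 11714 bp were common, 45.9% of the bases under a peak in either. Both peaks of KO replicate 1 and the peak of KO replicate 2 touched WT peaks of each WT library, but the KO libraries shared 0 bp with each other. The genes closest to Runx3 in coverage over the 4 lists, among 3325 genes within 1.5 times its length, were Cbx5 (a distance of 0.648 points), Zcchc14 (1.72) and Strn3 (1.93). Genes of this length had a median WT coverage of 28.5%, and 53.2% of them had less than Runx3. The 50 kb past the end of Runx3 were covered to 35.1% and 30.2% in WT and to 4.17% and 2.64% in KO. They reach into Clic4, which lies 35.98 kb away and had 54.6% and 41.8% in WT versus 0% and 1.22% in KO. The first 5 kb past the end were covered to 25.5% and 11.1% in WT versus 0% and 0% in KO. On the side of the start, 50 kb were covered to 1.69% and 2.11% in WT versus 3.30% and 5.92% in KO.

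The Runx relatives were lower in KO as well, though after scaling none passed and Runx2 turned (+6.36 scaled points, adjusted p = 0.0968). Runx1 went from 38.2% and 39.1% in WT to 3.19% and 3.25% in KO (limma adjusted p = 0.000624), and Runx2, the factor of bone and hypertrophic cartilage, from 17.7% and 17.6% to 3.06% and 4.39% (adjusted p = 0.00649). Cbfb, the partner that all Runx proteins bind, went from 51.7% and 47.5% to 2.38% and 0% (adjusted p = 0.000683). These 3 genes were named after their values had been seen. Over all genes tested 58.5% were lower, and 92.6% among genes with a mean of at least 10%. Since blood cells also express Runx genes, the haematopoietic markers belong beside this result. Their mean coverage over 10 genes was 23.4% and 30.9% in WT versus 1.73% and 6.11% in KO. The most covered in WT were Csf1r (45.1% and 43.5%), Lyz2 (74.9% and 87.6%) and Cd68 (37.0% and 71.3%), genes of macrophages. Itgam (23.9% and 21.7%), Adgre1 (18.6% and 17.3%), Spi1 (19.3% and 14.8%) and Ptprc (15.0% and 14.2%) had less. Cd79a of B cells had no peak in any list and Cd3e of T cells none in WT. Cd79b, also of B cells, had 0% and 38.2% in WT versus 0% and 31.8% in KO. Against IgG, Lyz2 was at 0% in WT, and so were the stromal markers Vim, Col1a1 and Fn1. In the same lists Csf1r kept 29.2% and 43.5% in WT, and Cd68 37.0% and 71.3%. The part of other cell types in the Runx3 result was not tested.

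Sox9, at chr11:112782210-112787757 and 5.55 kb long, had 1 peak in each WT library and none in KO. It covered 11.4% and 8.15% of the span in WT replicates 1 and 2, and the KO replicates were at 0% and 0%. The fall was -9.79 points (SE 1.85, limma adjusted p = 0.0170), and the lists against IgG held the same 2 WT peaks. The peak of replicate 1 spanned chr11:112785402-112786035 (634 bp, score 50.77) and that of replicate 2 chr11:112785058-112785509 (452 bp, score 36.93). They shared 108 bp, which is 17.0% of the wider peak and 23.9% of the narrower, near the middle of the gene. The call rests on 1 narrow peak per WT library. It was lost after scaling (-5.51 scaled points, adjusted p = 0.0589) and with 5 kb added on either side (-1.73 points, 0.493). The call was also lost without KO replicate 1 or KO replicate 2, at an unchanged difference of -9.79 points.

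Just outside Sox9 the libraries did not separate by group. The 5 kb on the side of lower coordinates were covered to 10.8% in KO replicate 1 and 0% in the other 3 libraries. The 5 kb on the other side were covered to 11.1% and 1.10% in WT versus 0% and 12.3% in KO. Sox9 sits in a large stretch without protein-coding genes, with Slc39a11 457 kb away on one side and Gm11677 1056 kb away on the other. Genes of its length had a median WT coverage of 11.5%, and 48.6% of them had less than Sox9.

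Sox5, the partner of Sox9 that lacks an activation domain of its own, is the largest of the 9 genes at 954 kb (chr6:143828425-144782287, minus strand). Peaks covered 4.62% and 4.38% of it in WT versus 3.93% and 4.04% in KO. Both KO values lay just under both WT values, but the difference of -0.515 points did not pass (SE 1.25, limma adjusted p = 0.738). Sox5, Sox9 and Runx3 were the 3 genes with both KO libraries under both WT libraries, a pattern that 65% of tested genes showed. The direction of Sox5 depended on the settings: it turned to +15.2 scaled points after scaling (adjusted p = 0.0274). It also turned to +0.826 percentage points when peaks scoring under their list's median were dropped (0.305). Against IgG it was 3.51% and 2.91% in WT versus 2.34% and 2.61% in KO.

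Its 72 and 67 WT peaks and 64 and 62 KO peaks were narrow, 586 to 623 bp on average, and scattered over the whole gene. No Sox5 peak was as wide as 2 kb. The peaks of any pair of libraries coincided in part. The WT replicates shared 9.03% of the bases under a peak in either, the KO replicates 7.14%, and WT with KO libraries 4.70% to 8.46%. Of the bases under WT replicate 1 peaks, 16.1% lay under peaks of WT replicate 2, which covered 4.38% of the gene. Of those under KO replicate 1 peaks, 13.5% lay under peaks of KO replicate 2, which covered 4.04%. Whether this overlap exceeds that of random placement was not tested. Among 123 genes of like length the median coverage was 0.955% in WT and 2.34% in KO, and 83.7% of them in WT and 89.4% in KO had less than Sox5. Sox5 stood above the outside-gene level of 1.98% and 1.97% in WT versus 2.52% and 3.32% in KO in all 4 libraries.

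Only 2 stretches within the 9 genes were under a peak in all 4 lists, and both lay in Sox5. The first, chr6:143836928-143837272 (345 bp), lay 945 kb from the 5′ end of the span, close to its 3′ end. Its peaks scored 44.98 and 62.14 in WT versus 139.57 and 150.1 in KO. Within their own lists these ranked at percentiles 60.6 and 73.0 in WT and 99.3 and 99.7 in KO. No list against IgG held a peak there. The second, chr6:144535277-144535670 (394 bp), lay 247 kb from the 5′ end and scored 17.45 and 30.38 in WT versus 64.11 and 50.74 in KO. Within their lists these peaks ranked at percentiles 6.75 and 35.7 in WT and 86.6 and 80.6 in KO. Against IgG the second stretch had a peak in WT replicates 1 and 2, with scores of 14.49 and 25.11, and none in KO. The highest-scoring Sox5 place in KO was thus a peak against Input that was not a peak against IgG, and it was picked out after the values were seen.

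**Figure D4:**
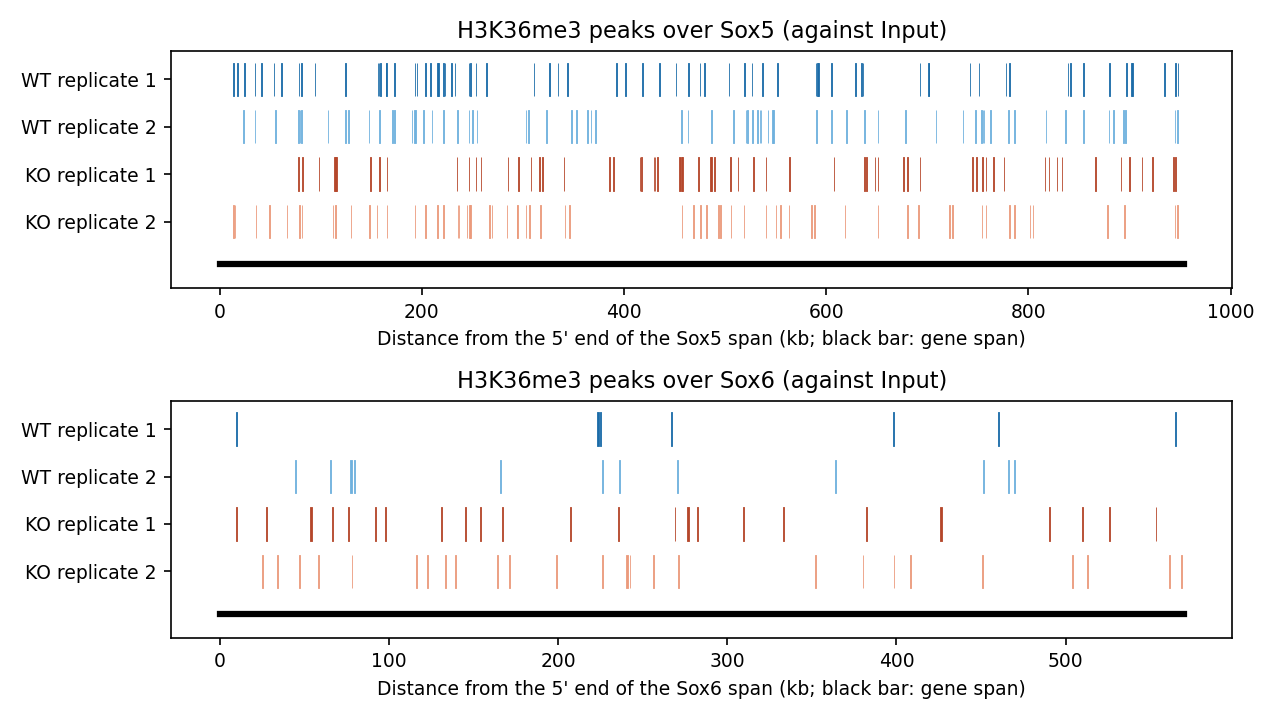
H3K36me3 peaks over Sox5 (top) and Sox6 (bottom) in each library (rows) by distance from the 5′ end of the span in kb (horizontal axis), with the gene span as a black bar. Sox5 carries 62 to 72 narrow peaks in every library, a minority of which coincide between libraries. Sox6 carries 7 and 12 in WT versus 24 and 26 in KO.

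Sox6, the close relative of Sox5 that acts with it, spans 570 kb (chr7:115470872-116040776, minus strand) and showed the opposite order. Coverage was 0.673% and 1.14% in WT versus 2.503% and 2.73% in KO, with 7 and 12 peaks in WT versus 24 and 26 in KO. Both KO libraries lay above both WT libraries, as they did in Matn3 and in 12.5% of the genes tested. The difference of 1.71 points did not pass (SE 0.808, limma adjusted p = 0.161), and it did after scaling (+11.1 scaled points, adjusted p = 0.0279). Against IgG the values were 0.771%, 0.725%, 1.62% and 1.66%. In WT Sox6 lay under the level outside annotated genes, and in KO replicate 1 at 2.503% beside 2.52% and in KO replicate 2 at 2.73% beside 3.32%. Of 296 genes of like length, the median was 1.71% in WT and 2.90% in KO.

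The Sox6 peaks of replicates did not fall in the same places. The WT replicates shared 0 bp, and so did the KO replicates. Between the groups, WT replicate 1 shared 176 bp with KO replicate 1 and 58 bp with KO replicate 2. WT replicate 2 shared 0 bp with KO replicate 1 and 482 bp with KO replicate 2. A peak of KO replicate 1, chr7:116030625-116031153 (529 bp, score 44.7), covered 156 bases of a Sox6 promoter window and was also listed against IgG with a score of 18.95. It is the only peak of the 4 libraries that touched a promoter window of the 7 genes with an entry (all but Sox9 and Comp), so that window is printed, chr7:116030998-116031297, minus strand, from RefSeq (GRCm38.p6). Capitals mark a SOX core, ACAAAG, read as its complement CTTTGT:
Sox6 promoter: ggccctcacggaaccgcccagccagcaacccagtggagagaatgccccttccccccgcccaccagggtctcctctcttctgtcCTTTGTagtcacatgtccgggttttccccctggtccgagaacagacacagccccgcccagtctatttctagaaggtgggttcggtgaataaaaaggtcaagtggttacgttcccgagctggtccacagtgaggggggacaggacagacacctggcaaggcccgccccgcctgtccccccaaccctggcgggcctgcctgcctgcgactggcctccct
The window has 13 CpG and 4 GC boxes (GGGCGG), which do not overlap the SOX core, and neither a second SOX core searched (AACAAT) nor TATAAA. On both strands ACAAAG occurs in 18.7%, AACAAT in 10.7% and TATAAA in 13.6% of promoter windows. Peaks touched 4.92% and 4.77% of all windows in WT versus 2.79% and 3.24% in KO.

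Ihh, the hedgehog signal that prehypertrophic chondrocytes send in the growth plate, had no peak in any of the 8 lists (chr1:74945315-74951672, 6.36 kb, minus strand). The 5 kb on either side were also free of peaks in all 4 lists against Input. Genes of its length had a median WT coverage of 15.0%. Since no counts are given, an absent peak sets no bound on the signal. Its neighbours Cfap65 (9.69 kb away) and Nhej1 (15.7 kb away) had low coverage as well, 1.41% and 0% in WT for Cfap65 and 8.11% and 3.44% for Nhej1.

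Acan encodes aggrecan, the large proteoglycan that gives cartilage its resistance to compression (chr7:79053226-79115099, 61.9 kb, plus strand). Its coverage was 3.09% and 1.63% in WT versus 1.79% and 4.56% in KO, so the groups overlapped, with 3, 2, 2 and 5 peaks. The difference of 0.813 points did not pass (SE 1.53, limma adjusted p = 0.664) and turned to -0.571 without KO replicate 2. Genes of its length had a median WT coverage of 28.3%, and 22.2% of them had less than Acan. The WT replicates shared 0 bp, while the KO replicates shared 547 bp about 21.5 kb from the start. Hapln3, a link protein gene 1.93 kb past its end, had 24.2% and 10.3% in WT versus 9.75% and 3.27% in KO (adjusted p = 0.230).

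Hapln1 encodes the link protein that fastens aggrecan to hyaluronan (chr13:89540529-89611832, 71.3 kb, plus strand). Coverage was 1.20% and 1.69% in WT versus 3.36% and 1.66% in KO, from 1, 2, 4 and 2 peaks, and the groups overlapped (limma adjusted p = 0.422). The WT replicates shared a peak of 553 bp near the middle of the gene, over the edge of the pseudogene Gm8546, and the KO libraries had none there. The KO replicates shared 504 bp about 67.4 kb from the start. The next gene, Vcan, which encodes the proteoglycan versican, lies 43.5 kb away and went from 48.3% and 44.2% in WT to 1.47% and 2.95% in KO (adjusted p = 0.000720).

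Comp, which encodes a thrombospondin-family protein that binds collagen fibrils (chr8:70373548-70382066, 8.52 kb), had 12.5% of its span under peaks in WT replicate 1 and 0% in WT replicate 2 and both KO libraries. The 2 peaks of WT replicate 1 measured 560 and 501 bp. The centre of the second lay 0.257 kb from the edge that faces Crtc1. The difference did not pass (-6.23 points, SE 4.87, limma adjusted p = 0.340). Without WT replicate 2, the WT library that had no Comp peak, the difference was -12.5 points, with 1 WT library left. With 5 kb added on either side, which takes in part of Crtc1, the difference passed (-16.4 points, limma adjusted p = 0.0253). Crtc1 begins 285 bp away and was covered to 35.2% and 36.8% in WT versus 3.49% and 6.70% in KO, and the 5 kb on its side of Comp to 59.3%, 40.9%, 0% and 0%. On the other side Upf1, 20.1 kb away, had 77.9% and 67.8% in WT versus 4.92% and 3.80% in KO.

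Matn3 encodes a matrilin, an adaptor protein of the growth plate matrix (chr12:8947929-8972028, 24.1 kb, plus strand). Coverage was 2.44% and 2.47% in WT versus 4.36% and 5.93% in KO, from 1, 1, 2 and 2 peaks. Both KO libraries lay above both WT libraries, but the difference of 2.68 points did not pass (SE 1.31, limma adjusted p = 0.169). It passed after scaling (+21.2 scaled points, adjusted p = 0.0143) and without KO replicate 1 (+3.47 points). Against IgG the direction turned: 2.44% and 0% in WT versus 0% and 0% in KO, -1.22 points (0.375). All 4 KO peaks against Input were thus missing against IgG. The KO replicates shared 583 bp about 17.9 kb from the start.

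Both neighbours of Matn3 were lower in KO. Wdr35, 1.97 kb away, had 50.9% and 65.9% in WT versus 4.26% and 1.09% in KO (limma adjusted p = 0.00385), and Laptm4a, 9.19 kb away on the other side, had 55.0% and 61.5% in WT versus 0% and 3.26% in KO (0.000828). Over all 9 genes there were 18 such nearest protein-coding neighbours, of which 12 were lower in KO and 0 higher, beside the 58.5% and 2.69% of all genes, and 4 and 2 after scaling. Their median coverage was 28.9% in WT and 2.82% in KO.

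**Figure D5:**
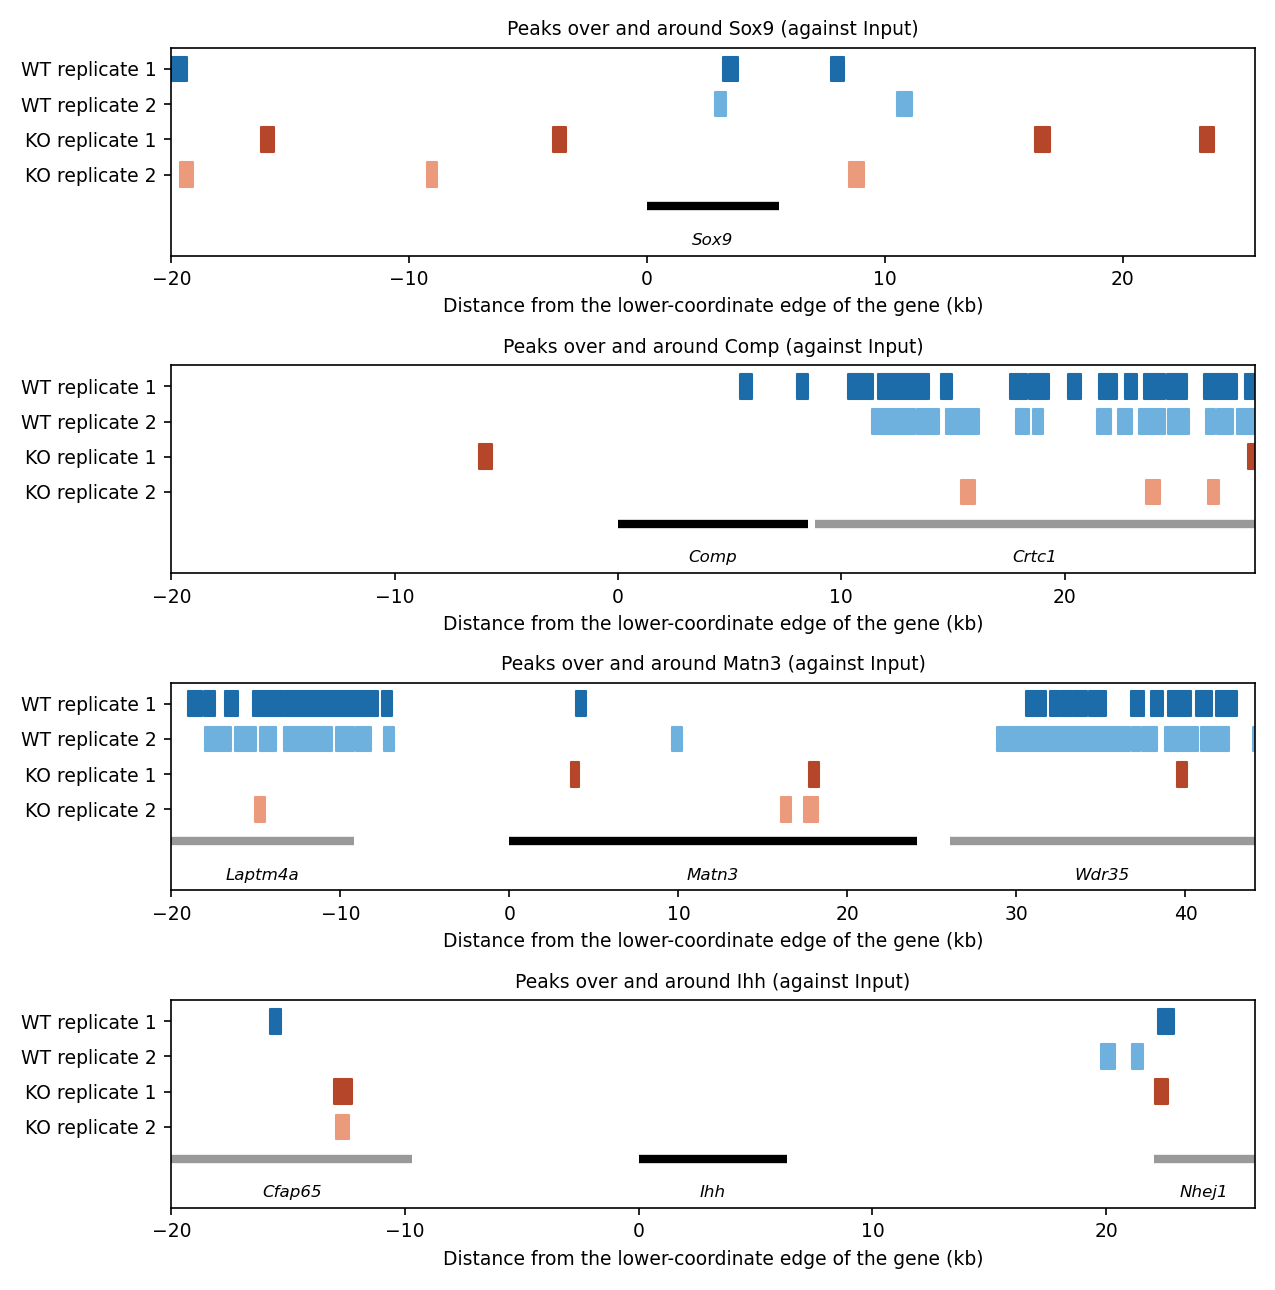
H3K36me3 peaks over and within 20 kb of Sox9, Comp, Matn3 and Ihh in each library (rows) by distance from the lower-coordinate edge of the gene in kb (horizontal axis), with the named gene in black and other protein-coding genes in grey. WT peaks cluster over Crtc1, Laptm4a and Wdr35 and are few over the 4 named genes, and the KO rows hold scattered narrow peaks. These 4 genes were chosen for the plot after their values were seen.

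Over the 9 genes there were 103 and 103 peaks in WT versus 98 and 98 in KO, and Sox5 alone held 72, 67, 64 and 62 of them. This total joins the fall in Runx3 (16 and 18 peaks to 2 and 1) with the higher numbers in Sox6 (7 and 12, then 24 and 26). It also depends on the lists: against IgG the mean per library was 80.5 (WT) and 62 (KO), and it was 27 (WT) and 44 (KO) among peaks from the list's median score up. Mean width was 706 and 670 bp in WT versus 590 and 613 bp in KO. Without Runx3 it was 609 and 606 bp in WT versus 587 and 613 bp in KO. The WT peaks wider than 2 kb in the set lay in Runx3, and over all peaks in the lists the mean width was 1000 and 956 bp in WT versus 585 and 592 bp in KO.

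Other genes of cartilage were compared by the same fit, in 6 lists with 74 genes. Over all genes tested 58.5% were lower and 2.69% higher, with a median change of -23.6 points. Of 7 cartilage collagens, 4 were lower, near the share over all genes, and 0 higher, with a median change of -11.7 points. Col11a2 fell from 43.2% and 52.4% to 5.02% and 4.65%, and Col9a3 from 55.4% and 35.7% to 6.99% and 3.82%. Col2a1, the chief collagen of cartilage and a Sox9 target, had 9.82% and 7.75% in WT versus 7.25% and 4.72% in KO (limma adjusted p = 0.336), and Col9a1 0.748% and 0% in WT versus 2.40% and 2.20% in KO (0.116). After scaling, 1 collagen gene was lower and 1 higher.

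Of 17 other cartilage matrix genes, 15 had a peak, and 3 were lower and 0 higher (median -0.296 points, 2 lower and 2 higher after scaling). Chad, a small leucine-rich protein, fell from 59.3% and 58.1% to 0% and 0%, and Vcan fell as given above. Matn1, a matrilin like Matn3, had 4.55% and 0% in WT versus 5.13% and 12.8% in KO (adjusted p = 0.218), and Snorc 0% and 0% in WT versus 10.3% and 0% in KO (0.340), though against IgG WT replicate 1 had 11.1%. Of 18 partners and relatives of the regulators, 14 had a peak, and 11 were lower and 0 higher (median -31.2 points, 5 lower and 1 higher after scaling). The acetyltransferase Ep300, which Sox9 recruits, fell from 75.2% and 72.0% to 0.770% and 1.61%, and the Mediator subunit Med12 from 61.9% and 51.7% to 2.13% and 4.54%. Sox10, the relative of Sox9 in neural crest, had 0% and 1.77% in WT versus 5.67% and 4.53% in KO (0.0599), and Foxa3 5.67% and 0% in WT and none in KO (0.343).

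In the Hedgehog and PTHrP list 12 of 13 genes had a peak, and 6 were lower and 0 higher (median -6.26 points, 2 lower and 0 higher after scaling). The receptor Ptch1, which receives Ihh, fell from 55.5% and 57.7% to 1.75% and 2.04%, and the pathway inhibitor Sufu from 43.4% and 45.5% to 1.93% and 1.62%. The BMP receptor Bmpr1b had 0.910% and 1.09% in WT versus 3.60% and 2.61% in KO (limma adjusted p = 0.136). All 13 genes of chondroitin sulphate synthesis had a peak, and 10 were lower and 0 higher (median -21.0 points, 4 lower and 2 higher after scaling). Ugdh, which makes the sugar nucleotide for the chains, fell from 73.3% and 74.9% to 0% and 0%, and Xylt2, which starts them, from 75.2% and 72.2% to 7.60% and 0%. Against IgG the lower count in this list was 6 of 12. The sulphotransferase Chst3 (2.80% and 0% in WT, 1.33% and 4.02% in KO, 0.541) and the chain synthase Chsy3 (2.80% and 2.92% in WT, 1.22% and 1.75% in KO, 0.271) did not pass.

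Of 6 genes of matrix breakdown, 5 had a peak, and 3 were lower, near the 58.5% of all genes, and 1 higher (median -18.5 points, 2 lower and 0 higher after scaling). The aggrecanases Adamts4 and Adamts5 fell, from 42.1% and 47.6% to 0% and 0% and from 41.4% and 37.6% to 0% and 1.37%. The protease Htra1 fell from 21.5% and 13.5% to 3.15% and 3.77% (limma adjusted p = 0.0382). Mmp9, a gelatinase of the growth plate, was the 1 gene higher in KO among the 6 lists, at 0% and 0% in WT versus 11.0% and 6.53% in KO (adjusted p = 0.0340), with the same values against IgG.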

How the data were processed

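H3K36me3 ChIP-seq peak lists of 4 libraries (2 WT, 2 KO) were used, with 4 control libraries behind them. The submitters' processing notes name Bowtie2, without a version, and GRCm38. Of the 8 lists that the authors deposited, each came from 1 library against the Input or IgG of its group, per the labels. Peak names begin with MACS, whose settings the sources used here leave out. Each peak has a score given by the authors, at least 13.01 and on an unstated scale, which served only for use within a list. Without counts the depth is unknown, and a deeper library can give more and wider peaks. Merged, annotated peaks mentioned in the labels were not analysed here.

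Autosomal, X and Y peaks were set against RefSeq spans of GRCm38.p6 (all 9 genes matched by symbol), with positions printed from 1. A peak counted for a gene from 1 bp of overlap. The gene table gives no strand, so distances use the strand of the promoter table, with entries for 7 of the 9 genes. Coverage was computed from these intervals. The difference between KO and WT was tested on the percent scale by limma 3.58.1 (R 4.3.3, statmod 1.5.0, lmFit, then eBayes with its trend and robust options) in all protein-coding genes with a peak in any list against Input, with Benjamini-Hochberg adjustment over 18288 genes and a threshold of 0.05. The step was tested on simulated data, with known changes placed only in genes of higher WT coverage than any of the 9. That test therefore does not cover genes with coverage as low as theirs. Other values came from Python 3.11.15, numpy 2.4.6 and pandas 2.3.3, and figures from matplotlib 3.10.9.

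The 9 genes, the lists and the rules were chosen with earlier results of these data known. Named genes were the 9, per related list the 2 largest falls and the 2 smallest falls or rises, the nearest genes on either side, overlapping genes and the 3 most like the gene with the highest WT coverage. Of these, 1 gene is not reported here. Alternatives were the IgG lists, scores from the list's median up, gaps up to 1 kb closed, libraries scaled to their mean, mean coverage of at least 10% or 25%, spans widened by 5 kb, plain eBayes, a replicate block, each library left out, and peaks counted by their centre or by 50% of their width.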

Additional observations from a re-analysis of the deposited data

How the results depend on the processing

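Of 87 alternatives for the 8 tested genes, 73 kept the direction and the side of the threshold and 4 turned the direction. Without a turn, 5 lost a call and 5 gained one. Among those that turned, Sox5 after scaling also gained a call. The cause was not tested. In scaled points, scaling lost Runx3 (-9.81) and Sox9 (-5.51), gained Sox6 (+11.1) and Matn3 (+21.2) and both turned and gained Sox5 (+15.2). In percentage points, widened spans lost Sox9 (-1.73) and gained Comp (-16.4). Sox5 turned when peaks under the median score were dropped (+0.826), and Matn3 against IgG (-1.22). With a library left out, Sox9 ranged from -11.4 to -8.15 points, losing its call without either KO replicate. Acan ranged from -0.571 (without KO replicate 2) to 2.20, Comp from -12.5 (called without WT replicate 2) to -6.23 and Matn3 from 1.90 to 3.47 (called without KO replicate 1). A fit with a lone library in a group assumes that it varies like the other group. No value could be had with a mean of at least 10% or 25% for genes other than Runx3 at 10%, for Hapln1 at the median score, or for Comp without WT replicate 1.

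The count of genes lower in KO was 10701 of 18288, and 4464 after scaling, 5883 of 5964 (98.6%) with a mean of at least 25%, where fewer genes were tested, and 6688 to 9068 with a library left out (6688 without KO replicate 1). The count of genes higher was 492, and 282 against IgG, 2100 after scaling, 60 and 18 with means of at least 10% and 25%, 312 with plain eBayes and 303 to 1925 with a library left out. The mean number of peaks over the 9 genes was 103 in WT and 98 in KO. It was 80.5 and 62 against IgG, 27 and 44 at the median score and 85.5 and 91.5 with gaps closed. Mean width was 687.9 bp in WT, 965.5 at the median score and 920.05 with gaps closed, and 601.3 bp in KO, 677.96 with gaps closed. Peak centre and the 50% rule changed no count.

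The replicate numbers pair no libraries by the labels, and deviations of same-numbered libraries had a correlation of -0.003 over 18288 genes. With the replicate block 10211 genes were lower and 162 higher, and Sox9 (adjusted p = 0.0435) and Runx3 (0.00569) kept their calls. No read counts are given, so depth limits cannot be set.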
